A study of Mus musculus with 4 samples.

Results

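Oxidative phosphorylation is the process by which mitochondria turn the energy of electrons from food into ATP. Complexes I, III and IV pass electrons to oxygen and pump protons across the inner membrane, complex II feeds in electrons from the citric acid cycle, and complex V, the ATP synthase, lets the protons flow back to make ATP. Most subunits are encoded in the nucleus and imported, while a few core subunits are encoded by mitochondrial DNA, so the nuclear genes have to be expressed in balance with each other. Embryonic stem cells grow with much glycolysis but keep an active respiratory chain.

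The genes described here are the protein-coding nuclear genes of these complexes, taken by symbol (Nduf, Sdh, Uqcr, Cox4 to Cox8 and Atp5 genes, without assembly factors). They are 84 of the 24116 genes in the deposited table, and 81 of them were abundant enough to be tested. Complex I has 35 of them, complex II 4, complex III 8, complex IV 20 and complex V 17, with Ndufa4 and Ndufa4l2 counted in complex IV because the Ndufa4 protein is a cytochrome c oxidase subunit. The members outside the test were Cox6a2, Cox7b2 and Cox8b, muscle or testis forms of complex IV subunits, each with 12 counts or fewer in every library. The mitochondrial genes, and Ndufb1 and the Ndufb4 copies Ndufb4b and Ndufb4c, were not analysed here.

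The samples were mouse embryonic stem cells of the strain labelled 12910la, grown in serum with LIF on gelatin, with no feeder cells named in the labels. Of the 4 libraries, 2 were from wild-type cells and 2 were titled Kdm2a knockout, Kdm2a being a demethylase of histone H3 lysine 36. According to the labels the knockout came from a guide RNA transfection, a sort for GFP-positive cells and the expansion of 1 clone, so clone and genotype cannot be told apart, and the genotype label of the same samples says knocked down. The wild-type cells are described with no transfection or cloning step of their own. RNA was total RNA with random-primed cDNA, read on a BGISEQ-500.

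Total counts were 18844246 to 19056529 per library, at which a count of 0 allows up to 0.156 to 0.165 CPM (CPM, counts scaled to a common library size; the limit is 3 counts per library), counting error only. Kdm2a itself had 2899 and 3554 wild-type counts, and 3710 and 4753 counts under the knockout label. The target RNA was therefore not lower. Its CPM was above both wild-type values in both libraries labelled knockout, as for 11.7% of all genes. The log2 fold change, knockout minus wild type, was 0.44 (unadjusted p 0.115, edgeR quasi-likelihood test). Counts per gene do not show whether the sequence or the protein of Kdm2a was changed, so every direction below follows the labels alone. Embryonic stem cell markers were strong in all libraries: the summed level of 8 of 8 (Pou5f1, Sox2, Nanog and others) was 4898 to 6064 CPM. Summed markers of mesoderm (11.0 to 27.4 CPM), endoderm (3.32 to 11.2 CPM, with Afp at 0 in every library), the 2-cell-like state (4.12 to 21.6 CPM) and trophoblast (1.05 to 3.45 CPM) were low. Neural markers summed to 68.3 to 121 CPM, most of it Tubb3, with Neurog2 at 0 in every library. Since the labels do not name separate cultures for the libraries of a group, the spread behind each p-value is that of these samples and may be technical. In bulk RNA, fewer cells of a type and less RNA per cell cannot be told apart.

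The promoters show what the genes share and what they do not. RefSeq windows of the GRCm38.p6 build, each 250 bases before to 50 bases after a start, were found for 68 of the 84 members (73 windows). They were searched on both strands for short exact forms of the sites of factors known to act on respiratory genes. The NRF1 form GCGCATGC was in 13.7% of the members' windows and in 2.71% of all 32851 windows. The ETS form CCGGAAG, the core bound by GABP, was in 23.3% against 8.86%. The YY1 form AAGATGGCG, whose first bases can overlap the end of the ETS form, was in 9.59% against 1.40%. Among windows of the genes tested here, which are the expressed ones, the shares were 4.98% for NRF1, 16.4% for ETS and 2.75% for YY1. A match is only a description of the letters, not a bound site. Below are 4 windows, 5′ to 3′ on the gene's strand, with motif matches in capitals. Cox7a2l has the lowest p of all members and no match; Sdhb holds an NRF1 and an ETS match; Ndufs3 holds the ETS form on both strands; Ndufa9 holds the YY1 form.
Cox7a2l (chr17:83514284-83514583, minus strand): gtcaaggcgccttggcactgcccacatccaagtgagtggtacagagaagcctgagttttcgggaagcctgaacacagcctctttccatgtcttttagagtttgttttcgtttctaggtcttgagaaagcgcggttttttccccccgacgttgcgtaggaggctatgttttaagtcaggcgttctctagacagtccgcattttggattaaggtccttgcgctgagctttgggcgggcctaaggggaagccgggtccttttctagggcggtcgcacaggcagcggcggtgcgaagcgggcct
Sdhb (chr4:140961021-140961320, plus strand): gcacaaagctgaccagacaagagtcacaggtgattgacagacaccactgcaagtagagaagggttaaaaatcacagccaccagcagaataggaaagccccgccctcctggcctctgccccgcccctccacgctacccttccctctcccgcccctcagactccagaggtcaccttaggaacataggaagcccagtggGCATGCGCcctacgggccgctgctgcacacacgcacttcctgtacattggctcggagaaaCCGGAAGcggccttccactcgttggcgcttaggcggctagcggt
Ndufs3 (chr2:90904672-90904971, minus strand): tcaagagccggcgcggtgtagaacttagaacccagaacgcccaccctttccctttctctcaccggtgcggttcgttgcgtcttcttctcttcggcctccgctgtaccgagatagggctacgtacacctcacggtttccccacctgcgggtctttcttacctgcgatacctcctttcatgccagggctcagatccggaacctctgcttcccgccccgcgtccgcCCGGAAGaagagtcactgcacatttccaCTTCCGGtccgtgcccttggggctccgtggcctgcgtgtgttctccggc
Ndufa9 (chr6:126849095-126849394, minus strand): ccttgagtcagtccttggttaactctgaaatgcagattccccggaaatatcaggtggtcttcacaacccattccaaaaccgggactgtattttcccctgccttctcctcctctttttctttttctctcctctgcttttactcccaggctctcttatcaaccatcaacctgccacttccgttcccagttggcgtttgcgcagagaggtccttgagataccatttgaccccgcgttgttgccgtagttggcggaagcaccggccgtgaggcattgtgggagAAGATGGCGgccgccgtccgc

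The first question was whether the subunit mRNAs differed between wild type and the libraries labelled knockout. No member passed the edgeR quasi-likelihood test: 0 of 81 had an adjusted p under 0.05, as did 0 of all 14194 genes (0.0%). At an unadjusted p under 0.05 there were again 0 of 81 members, where 1.7% of all genes (242) passed. DESeq2 called 0 members and 0.0141% of all genes (2), the edgeR likelihood ratio test 0 members and 0.0282% (4), and limma-voom 0 of either. The median log2 fold change, knockout minus wild type, was -0.01 over the members and 0.00 over all genes, with 36 members above 0 and 45 below. Fold changes ran from -0.97 for Cox4i2 to 0.34 for Ndufa5, and their SD over the members was 0.19 beside a median standard error (SE) of 0.26 for a single gene. The sign of the members' median depended on which library was left out: it was 0.13 without wild type 1, -0.15 without wild type 2, -0.15 without knockout 1 and 0.08 without knockout 2.

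**Figure D1:**
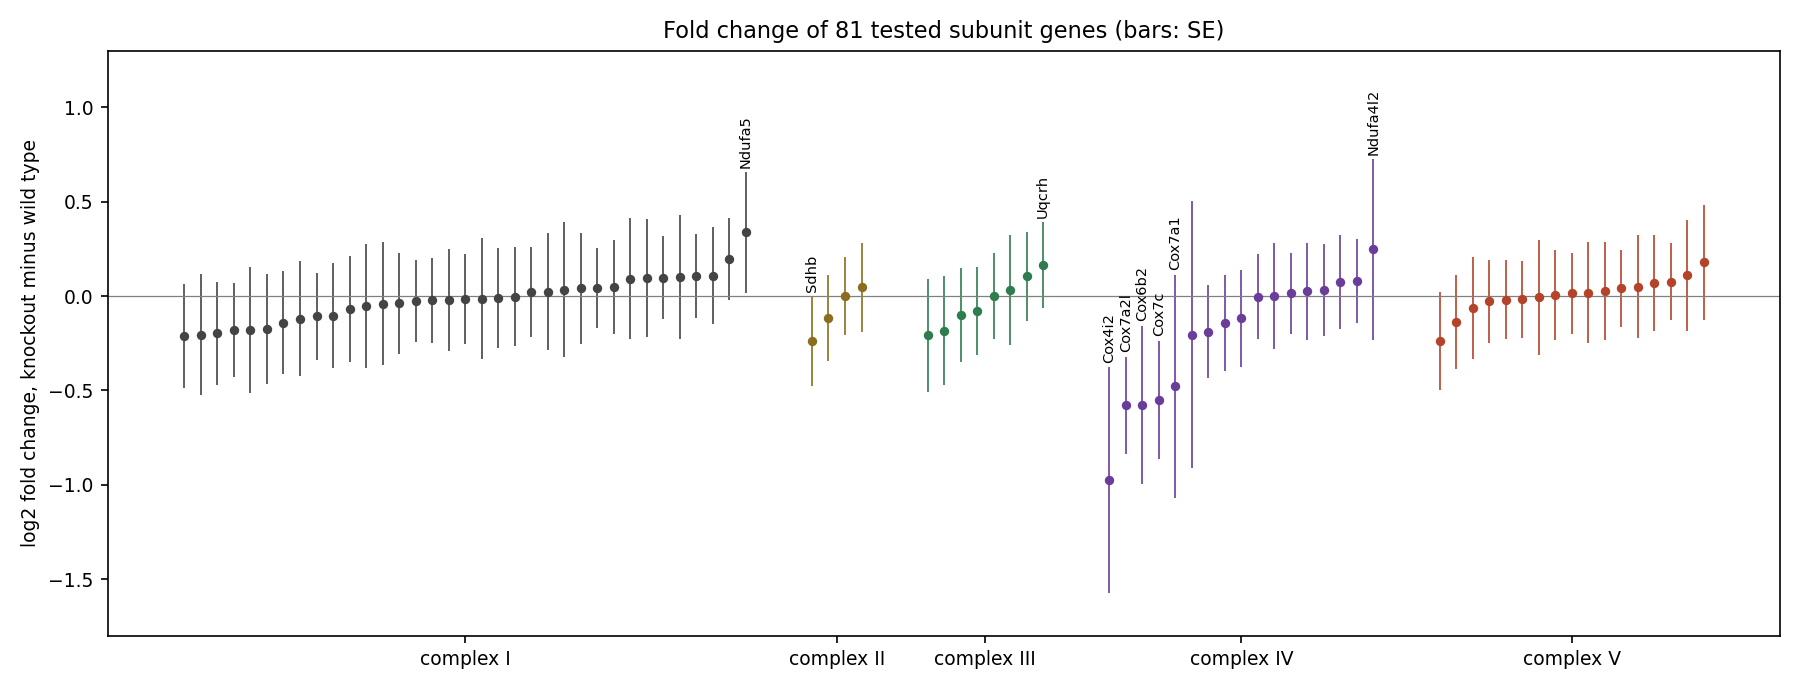
Log2 fold change (libraries labelled knockout minus wild type) of each of the 81 tested subunit genes on the y axis, sorted within complexes I to V along the x axis; points are edgeR estimates and bars are 1 SE, with 2 libraries per group. Most points lie near 0, and the estimates farthest below 0, Cox4i2, Cox7a2l, Cox6b2 and Cox7c, are all in complex IV.

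The members differed more by library number than by group. They were high in wild type 1 and knockout 1 and low in wild type 2 and knockout 2. Relative to each gene's mean over the 4 libraries, the median member stood at 0.17 (log2) in wild type 1, -0.13 in wild type 2, 0.11 in knockout 1 and -0.12 in knockout 2. Over all tested genes the same medians were 0.02 in wild type 1 and at most 0.01 from 0 in the others. Wild type 1 was above wild type 2 for 77 of 81 members (95.1%, against 52.5% of all genes), and knockout 1 was above knockout 2 for 68 (84.0%, against 50.0%). Both libraries numbered 1 were above both numbered 2 for 58 members (71.6%, against 25.9%). This pattern was noticed in the data and has no test here, and the labels do not say what, if anything, same-numbered libraries share.

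The highest library was wild type 1 for 51 members, knockout 1 for 24, knockout 2 for 5 and wild type 2 for 1. The lowest was wild type 2 for 37 members and knockout 2 for another 37. Between the wild-type libraries the median member differed by 0.28 (log2), and between the libraries labelled knockout by 0.25, both larger in size than the -0.01 between the groups. The count of 58 was 57, 63 and 59 under scaling by DESeq2 size factors, upper quartiles and library totals. With 1 library left out the condition is looser, so the count can only rise. It was then 63 to 70 members (77.8% to 86.4%), against 34.2% to 42.0% of all genes in the same comparisons. Of 47 tested members that share under 5% of their 50-base windows with another gene, 33 (70.2%) had the pattern.

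**Figure D2:**
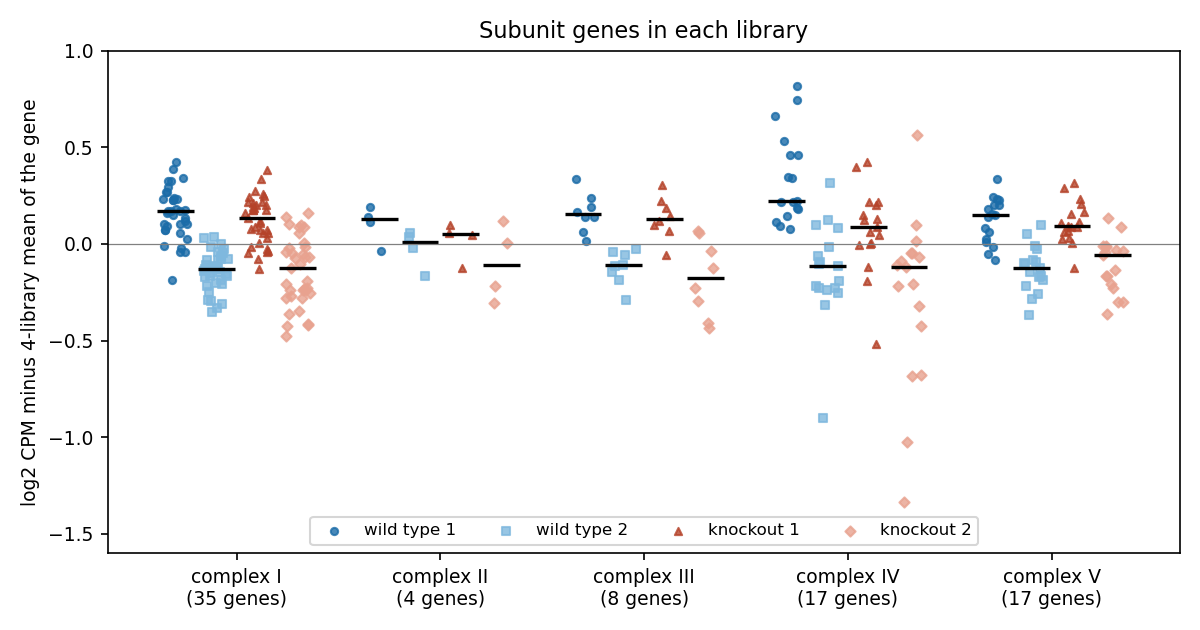
Log2 CPM of each tested subunit gene minus its mean over the 4 libraries (y axis), by complex (x axis) and library (colour and marker), with black lines at the medians. In complexes I, III, IV and V wild type 1 and knockout 1 lie above 0 at the median and wild type 2 and knockout 2 below it; in complex II wild type 2 is at 0.01.

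Both libraries numbered 1 were above both numbered 2 for 24 of 35 members of complex I, 2 of 4 of complex II, 6 of 8 of complex III, 12 of 17 of complex IV and 14 of 17 of complex V. The summed level of all members was 11908 and 9542 CPM in wild type against 11127 and 9869 CPM in the libraries labelled knockout. The means, 10725 ± 1673 CPM and 10498 ± 889 CPM (SD, n = 2 each), differed by less than the spread within either group. The members took 1.20% and 0.977% of the wild-type counts and 1.12% and 0.951% of the counts labelled knockout. For such sums 2 libraries against 2 cannot give an exact two-sided permutation p below 0.333, so none is reported.

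Short genes as a class were high and low in the same libraries. The exons of a member spanned 914 bases at the median (union of GENCODE M21 exons), against 3298 bases for the genes tested, and 54.8% of members were under 1 kb against 4.34% of tested genes. All 587 tested genes under 1 kb had median deviations of 0.18, -0.10, 0.09 and -0.12 in wild type 1, wild type 2, knockout 1 and knockout 2. The 43 members under 1 kb had 0.17, -0.15, 0.12 and -0.13. From 1 to 2 kb, the 28 members had 0.18, -0.12, 0.12 and -0.13 while all 2534 genes had 0.08, -0.02, 0.05 and -0.08. Genes over 6 kb (2171, no member among them) had the opposite order, at -0.08, 0.02, -0.05 and 0.15. Summed fibroblast markers were, like the members, higher in the libraries numbered 1, at 89.4, 37.3, 62.9 and 29.7 CPM in that library order. Most of this was Thy1 (mean 25.4 CPM) and Pdgfrb (24.2 CPM). Col1a1 had a mean of 5.10 CPM, Col3a1 at most 1 count and Col1a2 at most 6. Whether any fibroblasts were present was not tested, nor was the part of transcript length or of such cells in the members' pattern.

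**Figure D3:**
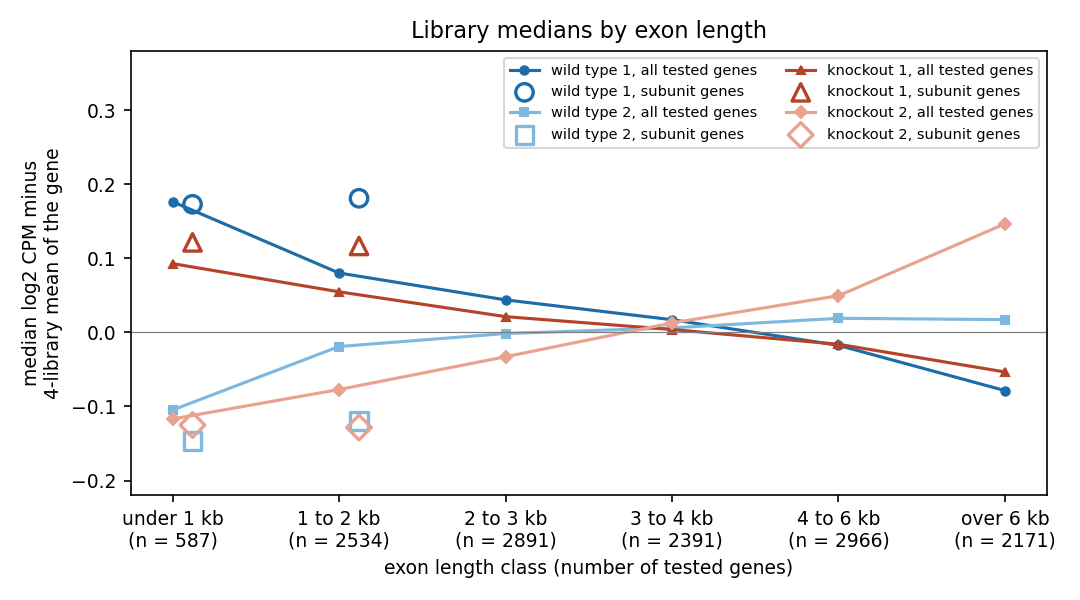
Median log2 CPM minus the gene's 4-library mean (y axis) by exon length class (x axis, with the number of tested genes) in each library; lines with filled markers are all tested genes and open markers are the subunit genes in the classes with at least 20 of them. The libraries fan out in short and in long genes, and from 1 to 2 kb the subunit genes lie farther from 0 than the class as a whole.

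The 28 tested members with any of the motifs had medians of 0.19, -0.16, 0.11 and -0.14 in the 4 libraries, and the 38 with a window and no match had 0.17, -0.10, 0.12 and -0.13. Their median log2 fold changes between the groups were -0.0015 and -0.016. The members lie on 19 chromosomes, with 8 on chromosome 7, the most on any, and 3 on the X chromosome.

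Complex I, which takes electrons from NADH, had a median log2 fold change of -0.02 (14 members above 0, 21 below). Its summed level was 2310 and 1874 CPM in wild type against 2239 and 1868 CPM in the libraries labelled knockout, so the library number again split it more than the group did. The 7 nuclear core subunits, which carry the flavin, the iron-sulfur clusters or the quinone-binding surface, had a median of -0.01. Ndufs1, the largest of them, had 2379 and 2473 counts against 2608 and 2253. Ndufv1, which binds the flavin and NADH, had 2275 and 2057 against 2522 and 2015. For each of these the groups overlapped. So they did for Ndufv2, Ndufs7 and Ndufs8, which hold iron-sulfur clusters, with 1660 and 1315 against 1693 and 1186 counts for Ndufv2, 1140 and 756 against 1079 and 824 for Ndufs7, 688 and 531 against 553 and 549 for Ndufs8.

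In 9 members over all complexes the groups did not overlap, which means that the CPM values of the libraries labelled knockout were both above or both below those of wild type. There were 5 such members on the lower side, where 12.7% of all genes are found, and 4 on the higher side, where 11.7% are found. The members' shares, 6.17% and 4.94%, lay below those of all genes. A gene with both libraries numbered 1 above both numbered 2 cannot be in either count. That order was found for 71.6% of members and 25.9% of all genes, so the lower shares do not show a smaller difference between the groups. All 9 had an adjusted p of 1.00 in the edgeR quasi-likelihood test. They are described next with their complexes.

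Ndufs3, a core subunit beside the quinone site, had 1027 and 1010 wild-type counts against 951 and 888. This is 53.0 ± 0.915 CPM against 49.3 ± 0.614 CPM (SD, n = 2), a log2 fold change of -0.11 (SE 0.23). It is small in size and 39.7% of its 50-base windows occur in other transcripts, most of them a processed pseudogene, so its count is uncertain. Ndufa5, a supernumerary subunit of the peripheral arm, had 246 and 254 counts against 316 and 298, or 13.0 ± 0.223 against 16.4 ± 0.0899 CPM. Its log2 fold change of 0.34 (SE 0.32) was the highest among the members. Ndufa9, which sits where the peripheral arm joins the membrane, had 1613 and 1505 against 1795 and 1678 counts, a log2 fold change of 0.20 (SE 0.22). Ndufa5 and Ndufa9 were above wild type in both libraries labelled knockout, whereas most of complex I followed the library number. At the other end of complex I, Ndufb8 had 2614 and 1902 against 2265 and 1539 counts and a log2 fold change of -0.21 (SE 0.28), with overlapping groups. Its sign turned without wild type 1 (0.042) and without knockout 2 (0.014).

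Levels between genes were compared per kilobase of exon. In complex I, Ndufa7 was highest with 243 ± 75.4 CPM per kb in wild type and 211 ± 65.7 in the libraries labelled knockout (SD, n = 2). Further down, Ndufb7 (98.0 CPM per kb over the 4 libraries) was above Ndufa6 (85.9) in each library, and Ndufb11 (89.0) had no fixed place against Ndufb7 or Ndufa6. Ndufb2 came lowest at 3.38 CPM per kb, on an annotated exon union of 4375 bases that is long for this class and lowers the value. Ndufs4, a small subunit needed for a stable complex, had 17.5 CPM per kb.

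Complex II, succinate dehydrogenase, is built from nuclear genes alone. Sdha, the flavoprotein that oxidises succinate, had 4913 and 5208 wild-type counts against 4622 and 5190, and a log2 fold change of 0.00 (SE 0.21). Sdhb, its iron-sulfur partner whose promoter is shown above, had 2064 and 1897 against 1881 and 1391 counts, or 103 ± 6.71 against 87.4 ± 15.4 CPM. The groups of Sdhb did not overlap, with a log2 fold change of -0.24 (SE 0.24), which was -0.066 without knockout 2 and -0.43 without knockout 1. Of the membrane anchors, Sdhc had 2930 and 2641 against 2839 and 2168 counts and Sdhd had 1318 and 1095 against 1258 and 1163, both with overlapping groups. Sdha deviated from the usual pattern, being higher in wild type 2 and knockout 2 than in the libraries numbered 1. Per kilobase, Sdha and Sdhb led with 90.8 and 83.4 CPM per kb, in an order that varied between libraries, and Sdhd and Sdhc followed at 51.9 and 44.0.

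Complex III passes electrons from ubiquinol to cytochrome c. Uqcrc1, a core protein, had 6601 and 5413 wild-type counts against 6383 and 4693, a log2 fold change of -0.08 (SE 0.23). Its partner Uqcrc2, which shares 24.2% of its windows with other transcripts, had 3302 and 2428 against 3079 and 2910 counts. Uqcrfs1, the Rieske iron-sulfur protein, had 1728 and 1599 against 1794 and 1443. In all of these the groups overlapped. Uqcrh, the hinge protein that helps cytochrome c dock, was the exception, with 1234 and 1080 counts against 1306 and 1214, or 60.2 ± 6.0 against 67.5 ± 1.06 CPM. Its log2 fold change was 0.16 (SE 0.23), and the gap between the groups is narrower than the distance between the wild-type libraries. It was 0.27 without wild type 1 and 0.074 without wild type 2. Uqcr10 had the lowest value of the complex at -0.21 (SE 0.30), with 1442 and 1062 against 1299 and 818 counts, and its sign turned without wild type 1 (0.036) and without knockout 2 (0.063). Per kilobase, Uqcrc1 (184 CPM per kb) was above Uqcr10 (140) in each of the 4 libraries, and Uqcrh and Uqcr11 followed at 117 and 109.

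Complex IV, cytochrome c oxidase, reduces oxygen to water, and many of its nuclear subunits exist as paralogs with a restricted tissue range. Its median log2 fold change was -0.12 (7 members above 0, 10 below), but it was 0.12 without wild type 1, and -0.27 without wild type 2. Wild type 1 was the highest library for 14 of the 17 tested members. The summed level was 2074 and 1504 CPM in wild type against 1748 and 1667 CPM in the libraries labelled knockout. Wild type 1 was thus the highest library here, as it was in the summed level of every other complex.

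Cox7a2l had the lowest p of the members. It encodes the factor also called SCAF1 or COX7RP, which links complexes III and IV into supercomplexes. The wild-type libraries held 2757 and 2199 counts and the libraries labelled knockout 1398 and 1812, so that both wild-type libraries were higher. The means were 129 ± 21.2 against 86.3 ± 18.8 CPM (SD, n = 2), with a log2 fold change of -0.58 (SE 0.26). The unadjusted p of the edgeR quasi-likelihood test was 0.0604 and the adjusted p was 1.00. Over the 13 alternative settings the log2 fold change stayed between -0.82 (without knockout 2) and -0.38 (without knockout 1), and the lowest adjusted p was 0.725. Cox7a2l lies at chr17:83501917-83514333 (GRCm38.p6), and 17.8% of its windows occur in a processed pseudogene, Gm6969, so its count carries that uncertainty. The paralogs Cox7a2, the common form, and Cox7a1, the heart and muscle form, had overlapping groups. Cox7a2 had 1278 and 1123 counts against 1394 and 988, and Cox7a1 had 167 and 101 against 141 and 48.

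Cox7c, a small membrane subunit, had 531 and 412 wild-type counts against 355 and 272, or 24.6 ± 4.51 against 16.8 ± 2.54 CPM. Its log2 fold change was -0.55 (SE 0.31), or -0.35 without wild type 1 and -0.72 without wild type 2, and 23.0% of its windows are shared with other transcripts. Cox4i2, the lung form of subunit 4 known to respond to low oxygen, had 171 and 121 counts against 111 and 35. The log2 fold change of -0.97 (SE 0.60) depended on knockout 2: it was -0.39 without that library and -1.98 without knockout 1. Cox4i1, the common form, had 5967 and 4605 counts against 5369 and 5493, with overlapping groups. Per kilobase Cox4i1 stood at 360 ± 67.5 and 381 ± 19.8 CPM per kb, against 9.65 ± 2.39 and 4.90 ± 3.48 for Cox4i2, so the common form dominated in both groups. Cox4i1 shares 12.3% of its windows with the neighbouring gene Emc8.

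**Figure D4:**
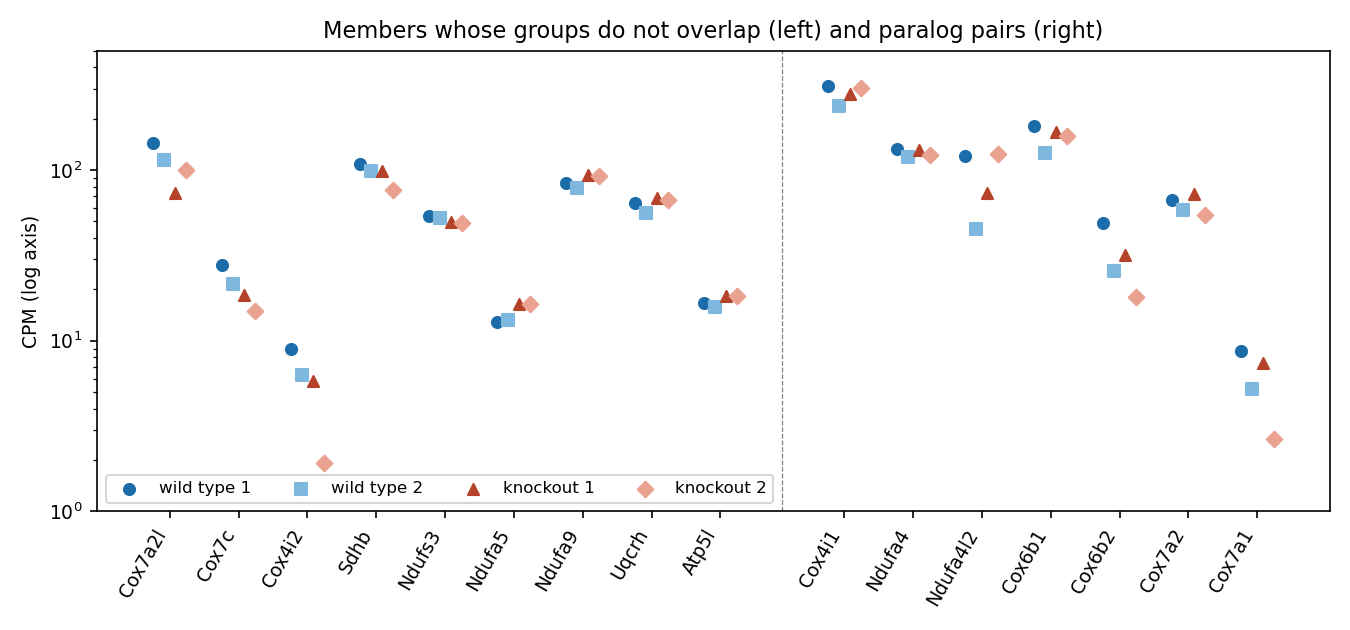
CPM on a log axis (y) in each of the 4 libraries (colour and marker) for the 9 subunit genes whose groups do not overlap (left of the dashed line) and for paralogs of complex IV subunits (right). Cox7a2l, Cox7c and Cox4i2 lie lower in both libraries labelled knockout than in either wild-type library, and Ndufa4l2 is high in wild type 1 and knockout 2.

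The other paralog sets showed which form had more RNA in these cells. Cox6b1, the common form, had 249 ± 64.4 and 263 ± 9.12 CPM per kb in the respective groups, against 50.3 ± 22.4 and 33.7 ± 13.1 for the testis form Cox6b2. Cox6b2 had 938 and 492 wild-type counts against 610 and 330, high in the libraries numbered 1. Cox6a1 was the highest gene of complex IV, with 5563 and 3709 against 4390 and 3919 counts, or 423 ± 122 and 390 ± 17.2 CPM per kb. It was above Cox8a (391 ± 108 and 353 ± 21.6) in each of the 4 libraries, while its order against Cox4i1 varied between libraries. The muscle form Cox6a2 had 2, 2, 1 and 1 counts, and the muscle form Cox8b had 1, 1, 0 and 2, all at or below the limit that a count of 0 allows. Cox8c, a testis form, had 17 and 16 against 20 and 8 counts. Cox7b had 2697 and 2064 against 2639 and 2097, while the testis form Cox7b2 had 6 and 5 against 3 and 12.

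Cox5a and Cox5b, which have no such paralog, had 3101 and 2651 against 2898 and 2023 counts and 1865 and 1605 against 1781 and 1587. Both followed the library number and overlapped between the groups, and they share 32% and 21.8% of their windows with other transcripts. Ndufa4 had 2553 and 2288 against 2525 and 2229 counts and varied little. Its paralog Ndufa4l2, a target of the hypoxia factor HIF, varied most between wild-type libraries of all tested members (log2 difference 1.44), with 2325 and 865 counts, against 1406 and 2255 under the knockout label. Its log2 fold change was 0.25 (SE 0.48), and it was 1.14 without wild type 1 and -0.29 without wild type 2, so the sign rests on single libraries.

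Complex V, the ATP synthase, was the most abundant, with summed levels of 6003 and 4845 CPM in wild type against 5675 and 5046 CPM. Its median log2 fold change was 0.01 (10 members above 0, 7 below), and it was below 0 under scaling by upper quartiles or library totals, reaching -0.03. Atp5b, the catalytic beta subunit, had 50974 and 39273 counts against 47966 and 38343, the most of any member, and a log2 fold change of -0.03 (SE 0.22). Atp5a1, the alpha subunit that alternates with it in the catalytic head, had 27954 and 22932 against 25235 and 23609 counts. Atp5c1, the gamma subunit of the central stalk, had 4612 and 4126 against 4009 and 4547. Groups overlapped for all of them, and for Atp5b the distance between same-group libraries exceeded that between the groups.

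Per kilobase Atp5b was highest of all members, at 1226 ± 231 CPM per kb in wild type and 1204 ± 147 in the libraries labelled knockout (SD, n = 2). Atp5a1 followed at 456 ± 66.1 and 451 ± 5.0, below every Atp5b value. The c subunit, which forms the rotating ring in the membrane, is encoded by Atp5g1, Atp5g2 and Atp5g3. Atp5g2 had 324 ± 77.4 and 325 ± 6.56 CPM per kb and Atp5g3 216 ± 19.1 and 213 ± 7.03. Atp5g1 had 14.0 ± 1.01 and 11.9 ± 2.70 on an annotated exon union of 4912 bases, which lowers it, and its counts were 1381 and 1257 against 1295 and 889. It had the lowest fold change of complex V, -0.24 (SE 0.26) on the log2 scale, which was -0.018 without knockout 2 and -0.49 without knockout 1. Atp5l, the g subunit of the membrane part, had 319 and 305 against 352 and 334 counts, a log2 fold change of 0.18 (SE 0.30) with groups that did not overlap. Of its windows 84.9% occur in other transcripts, mostly processed pseudogenes, so this count is the least certain of the 9.

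Genes that build and supply the chain were taken from 8 lists, of which 109 of 114 genes were tested. Their median log2 fold change was 0.00, with 56 above 0 and 53 below, and 0 passed the edgeR quasi-likelihood test at an adjusted or an unadjusted p under 0.05. Both libraries numbered 1 were above both numbered 2 for 42 of them (38.5%), against 71.6% of the subunits and 25.9% of all genes. The pattern held for 9 of the 15 tested complex I assembly factors and 13 of 22 genes of the carrier list. That list holds subunits and electron carriers outside the rule, ubiquinone synthesis genes (Coq and Pdss), and Higd and Chchd genes. The pattern held for 4 of 20 complex IV assembly factors, 7 of 19 citric acid cycle genes and 3 of 19 transcription regulators. The assembly factors of complexes II, III and V, had 2 of 4, 2 of 6 and 2 of 4 such genes. Median exon length over these lists was 1684 bases for complex I assembly, 1926 for complex IV assembly, 1890 for the carrier list, 2580 for the citric acid cycle and 4388 for the regulators.

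Among these genes, Cyc1, the cytochrome c1 subunit of complex III, had 4281 and 3687 wild-type counts against 4005 and 3045, and so resembled the subunits in its order of libraries. Chchd10, a mitochondrial intermembrane-space protein and the most abundant of the carrier list, had 12226 and 7834 against 11746 and 6704. Cycs, which encodes cytochrome c, had 639 and 1013 against 1236 and 735, with neither order. Of the regulators, Tfam, which packages mitochondrial DNA, had 1161 and 1625 against 1457 and 1253 counts, and Nrf1 had 930 and 1177 against 1062 and 1287. Tfb2m, a mitochondrial transcription factor, had 446 and 577 against 388 and 137, the lowest in knockout 2. Esrrb, an orphan receptor that is also a pluripotency factor, had 18327 and 19768 against 21203 and 20718, above wild type in both libraries labelled knockout. The assembly factor with the highest fold change of these lists, Tmem126b of complex I, had 104 and 86 against 91 and 250 counts, high in knockout 2 alone. Cox18, which inserts a mitochondrial subunit of complex IV into the membrane, was lowest of its list with 912 and 693 against 675 and 378, and its groups did not overlap. Ppargc1a, a coactivator of mitochondrial biogenesis, had 0 counts in 3 libraries and 21 in knockout 2, and was not tested.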

How the data were processed

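Per the labels, libraries were BGISEQ-500 RNA-seq; the tools named in the submitters' processing notes are featureCounts and HISAT2, with build mm10; the sources used here do not give versions, annotation, strand or multi-mapping settings. The authors deposited whole-number read counts per gene (Entrez ID), not normalized, so reads of near-identical or overlapping genes may be split or merged. Groups and numbers come from titles. Symbols came from RefSeq GRCm38.p6 (24061 of 24116 matched). Genes passing filterByExpr (14194) were fitted with edgeR 4.0.16 in R 4.3.3: TMM scaling, quasi-likelihood F test on genotype, Benjamini-Hochberg over all tested genes, threshold 0.05. SE is the absolute log2 fold change over the root of F; log2 CPM used a prior count of 2. The fit was tested on simulated counts with known fold changes, drawn with no shift by library number or exon length. Alternatives used DESeq2 1.42.0, limma 3.58.1, other scalings and filters, a replicate block and each library left out. Named genes were, per complex, the extremes of fold change, the lowest p, the highest level per kb, core subunits and paralog sets, and of the other lists the extremes and most abundant; others were chosen after their values were seen. Members and lists were chosen with earlier results of these data known.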

Additional observations from a re-analysis of the deposited data

How the results depend on the processing

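No subunit gene was called at an adjusted p under 0.05 in any of the 13 alternatives. The number of all genes called was 0 by the edgeR quasi-likelihood test (242 at an unadjusted p under 0.05), 2 by DESeq2 and 4 by the likelihood ratio test. With 1 library left out it ran from 0 to 91, with 91 without knockout 1 and 8 without knockout 2. The complex IV median log2 fold change ran from -0.27 to 0.12 with 1 library left out (0.12 without wild type 1), and the medians of complexes I, III and V also took both signs there, from -0.15 to 0.14, from -0.20 to 0.11 and from -0.09 to 0.14. The number of members with the libraries numbered 1 above those numbered 2 was 57 to 63 under the other scalings. It was 63 to 70 with 1 library left out, where the condition is looser and the count can only rise. These alternative counts were added after the data were seen. With 1 library left out, the log2 fold change took both signs for Atp5b (-0.20 to 0.18), Cox6a1 (-0.38 to 0.21), Ndufa4l2 (-0.29 to 1.14), Ndufa7 (-0.57 to 0.15), Ndufb8 (-0.48 to 0.042), Sdha (-0.12 to 0.11), Sdhd (-0.079 to 0.19), Uqcr10 (-0.54 to 0.063) and Uqcrc1 (-0.28 to 0.10). Sdha, at 0.000218, was also -0.040 by upper quartiles, -0.047 by library totals, -0.0062 with no filter, -0.015 with a mean of at least 5 CPM, -0.0048 by limma-voom and -0.0043 with the replicate block. The cause of these changes was not tested. With 2 libraries per group, standard errors near 0.26 on the log2 scale limit what can be detected.

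Titles give both groups the numbers 1 and 2. The differences between libraries 1 and 2 correlated between the groups at r = 0.35 across all genes and 0.12 across the members, which are correlations across genes and not over replicates. Each is taken around the mean difference of its set, so a shift that all members share does not enter it. As nothing in the labels says that the numbers pair the libraries, the replicate block is an alternative only. With it 0 of all genes and 0 members were called, 2 of 81 members and 735 of all 14194 genes had an unadjusted p under 0.05, and the members' median log2 fold change was -0.01.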

Other observations

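Pdk1, the kinase that switches off pyruvate dehydrogenase and so lowers the feed of pyruvate into the citric acid cycle, had the reverse of the subunits' order of libraries: 2697 and 6329 counts in wild type 1 and 2, and 3442 and 7112 in knockout 1 and 2. Pdha1, which encodes the subunit it phosphorylates, and Dlat, which encodes the subunit of the same enzyme that it binds, had 4754, 5289, 4861 and 5795 counts and 2246, 1845, 2224 and 1928 counts in the same order, a much smaller spread. Lrpprc, which stabilises mitochondrial mRNAs, was lowest in wild type 1 (2773 counts) and lay between 3905 and 4429 in the other libraries. Myc, a regulator of many mitochondrial genes, was also lowest in wild type 1, with 310 counts against 1394 in wild type 2, 1262 in knockout 1 and 1090 in knockout 2. Wild type 1 was the lowest library for 12 of the 19 tested transcription regulators (63.2%), against 27.3% of all genes and 2.47% of the subunits. The regulators had a median exon length of 4388 bases, against 914 for the subunits. In wild type 1 all tested genes over 6 kb had a median deviation of -0.08, and those under 1 kb 0.18. The part of exon length in this contrast was not tested. The genes named in this section were chosen after their values were seen, and no test was made of them.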
